A study of Mus musculus with 32 samples.

Results

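Cultured BAL17 cells, a line of B lymphoma from BALB/c mice, were compared with lymphoma-free brains of mice injected with phosphate-buffered saline (PBS). The comparison sets out which genes each source of RNA carries before any lymphoma grows in a brain. It takes 11 of the 32 arrays of the series, namely all 6 of the cultured line and all 5 of PBS brains, and every gene with a probe set that carries 1 gene symbol (19938 genes). Of these, 12343 exceeded the median of their array on at least 5 of the 11 arrays and were tested.

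The study implanted 500000 cells of BAL17, or of the related line BAL17VII, into the brains of wild-type BALB/c mice, to model lymphoma that arises in the central nervous system. Brains were taken at day 21 for both lines and at day 28 for BAL17, with 5 brains in each group, and the cultured lines were profiled on 6 arrays each. PBS brains were taken at day 28 and were labelled as whole brain, and all mice and lines were BALB/c. RNA was hybridised to Affymetrix whole-transcript gene arrays. BAL17 is a single line, and the labels do not say whether its 6 arrays come from separate cultures, so p-values measure the spread between these arrays, which may be technical. The extraction entry names frozen tissue sections for every sample, the cultured line included. The sample numbers in the labels follow 1 series for the lines and another for the brains. Any difference in handling between lines and brains cannot be told apart from the difference between line and brain.

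A B lymphoma line in culture is a dividing population of 1 lineage, whose cells carry the B cell receptor pathway and the transcription factors that hold B cell identity, such as Pax5. A brain is a mixture of neurons that no longer divide, astrocytes, oligodendrocytes, microglia, blood vessels, meninges and choroid plexus. A brain value is therefore an average over many cell types, and fewer cells of a type and less RNA per cell cannot be told apart.

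Promoters of genes of mitosis, DNA replication and the B cell receptor are shown first, because their sequences can be read beside the values. Genes of mitosis are known for a pair of promoter elements, a CCAAT box and the CHR element (cell cycle genes homology region), while genes of DNA replication are known for E2F sites. The windows run from 250 bases before to 50 bases after the start of a gene and are RefSeq promoters of build GRCm38.p6, written from 5′ to 3′ on the strand of the gene. The mitosis genes with the 4 largest differences come first, with CCAAT and TTTGAA in capitals on either strand. They are Bub1 (chr2:127831810-127832109, minus strand), Top2a (chr11:99024140-99024439, minus strand), Mki67 (chr7:135716330-135716629, minus strand) and Knl1 (chr2:119046869-119047168, plus strand).
Bub1: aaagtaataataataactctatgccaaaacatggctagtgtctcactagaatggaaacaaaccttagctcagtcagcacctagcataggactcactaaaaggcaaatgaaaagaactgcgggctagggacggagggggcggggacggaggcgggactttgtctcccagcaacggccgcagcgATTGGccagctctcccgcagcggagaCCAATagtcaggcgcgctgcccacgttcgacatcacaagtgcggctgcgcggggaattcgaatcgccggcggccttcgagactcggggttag
Top2a: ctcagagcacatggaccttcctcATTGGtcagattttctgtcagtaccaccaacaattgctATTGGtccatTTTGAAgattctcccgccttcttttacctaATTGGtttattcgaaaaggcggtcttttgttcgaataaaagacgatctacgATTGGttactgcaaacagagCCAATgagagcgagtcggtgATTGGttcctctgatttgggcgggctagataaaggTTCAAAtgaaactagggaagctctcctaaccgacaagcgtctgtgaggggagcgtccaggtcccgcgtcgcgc
Mki67: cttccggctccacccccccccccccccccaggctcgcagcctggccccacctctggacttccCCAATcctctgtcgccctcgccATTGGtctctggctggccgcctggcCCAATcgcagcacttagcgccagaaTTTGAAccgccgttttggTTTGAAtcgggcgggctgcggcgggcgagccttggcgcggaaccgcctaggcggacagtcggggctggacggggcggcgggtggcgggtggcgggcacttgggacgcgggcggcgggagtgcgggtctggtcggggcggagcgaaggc
Knl1: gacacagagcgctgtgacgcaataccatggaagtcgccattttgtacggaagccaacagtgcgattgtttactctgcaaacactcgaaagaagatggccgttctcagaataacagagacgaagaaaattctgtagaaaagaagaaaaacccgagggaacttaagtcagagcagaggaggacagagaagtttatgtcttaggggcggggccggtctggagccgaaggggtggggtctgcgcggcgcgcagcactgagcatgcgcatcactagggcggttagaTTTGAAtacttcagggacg
The window of Top2a held 6 CCAAT boxes and 2 copies of TTTGAA, and that of Mki67 held 3 and 2. Bub1 had 2 CCAAT boxes and 0 copies of TTTGAA, whereas Knl1 had 1 copy of TTTGAA close to its start and 0 CCAAT boxes. TTTGAA was the only string searched for the CHR element, so a window without it is not shown to lack the element.

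Mcm3 (chr1:20820263-20820562, minus strand) and Uhrf1 (chr17:56303087-56303386, plus strand) are shown as examples of replication genes. Blnk (chr19:40994172-40994471, minus strand) is an example from the B cell receptor pathway. Capitals mark TTCCCGC, a core of E2F sites, in the first pair and the octamer ATGCAAAT, a site known for the B cell factors Oct2 and Pou2af1, in Blnk, on either strand. Uhrf1 has more than 1 promoter in the table, and the first is shown.
Mcm3: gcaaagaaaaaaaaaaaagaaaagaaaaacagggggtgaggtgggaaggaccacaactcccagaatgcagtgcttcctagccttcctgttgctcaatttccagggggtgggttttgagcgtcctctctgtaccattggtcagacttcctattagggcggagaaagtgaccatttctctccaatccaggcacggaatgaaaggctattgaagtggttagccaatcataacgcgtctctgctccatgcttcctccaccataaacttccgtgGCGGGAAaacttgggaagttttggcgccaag
Uhrf1: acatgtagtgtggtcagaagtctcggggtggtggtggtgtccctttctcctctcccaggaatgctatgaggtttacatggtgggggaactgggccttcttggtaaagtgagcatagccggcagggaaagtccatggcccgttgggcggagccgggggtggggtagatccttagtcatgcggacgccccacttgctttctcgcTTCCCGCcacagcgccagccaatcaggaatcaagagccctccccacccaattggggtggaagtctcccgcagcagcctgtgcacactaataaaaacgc
Blnk: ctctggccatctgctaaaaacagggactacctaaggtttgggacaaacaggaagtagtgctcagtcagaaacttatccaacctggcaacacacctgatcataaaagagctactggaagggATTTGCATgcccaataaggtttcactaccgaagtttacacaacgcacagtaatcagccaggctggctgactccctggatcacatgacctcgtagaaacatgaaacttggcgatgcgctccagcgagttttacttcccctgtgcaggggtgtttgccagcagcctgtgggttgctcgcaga
Each of these 3 windows held 1 copy of its motif. The 3 genes were picked singly and do not have the largest differences of their lists, so they do not represent them. Shares over the lists follow.

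Counted over genes with a promoter in the table (a gene counts if any of its windows holds the motif on either strand), TTTGAA stood in 17 of 22 mitosis genes (77.3%), in 14% of the 9858 tested genes and in 20.2% of all 27025 genes. Within 50 bases of the start it stood in 16 of the 22 (72.7%), against 3.76% of tested genes and 5.72% of all genes. CCAAT stood in 17 of the 22 mitosis genes (77.3%), against 42.5% of tested genes and 41.1% of all genes. Among replication genes CCAAT stood in 17 of 26 (65.4%), near the share of the mitosis genes. TTTGAA stood in 3 replication genes (11.5%), and TTCCCGC in 11 (42.3%), against 1 of 22 mitosis genes, 9.58% of tested genes and 5.29% of all genes. Differences between these shares were not tested. Genes more than 2-fold higher in BAL17 cells held TTCCCGC in 14.5% of 1199 genes and CCGGAAG, a core site of ETS factors, in 22.5%. The shares for the 1681 genes more than 2-fold higher in PBS brains were 7.02% and 7.38%, beside 18.7% for CCGGAAG over tested genes and 9.93% over all genes. The octamer was rare, in 1.97% of all genes, 1.54% of tested genes, 1.83% of those higher in BAL17 cells and 1.9% of those higher in PBS brains. Among tested genes of the 3 B cell lists described below, the 4 whose windows held it were Vpreb3, Blnk, Prkcb and Elf1. They make up 1 of 11 receptor and surface genes, 2 of 15 signalling genes and 1 of 16 transcription factors (9.09%, 13.3% and 6.25%). These shares rest on very few genes and were not tested. Motifs may overlap and were counted separately, and a match is a string of letters, not a shown site of binding.

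The sources differed in most of what the array measured. Values below are log2 intensities, and differences are BAL17 cells minus PBS brains ± SE from limma, so 1 unit is a doubling. At an adjusted p under 0.05, 5656 genes (45.8% of those tested) were higher in BAL17 cells and 4790 (38.8%) were higher in PBS brains. Most of these differences were small, and the stricter call used from here on asks for a difference of more than 2-fold, tested with limma's treat at an adjusted p under 0.05. By that call 1499 genes (12.1%) were higher in BAL17 cells and 2165 (17.5%) in PBS brains. The median difference over all tested genes was 0.11, with quartiles at -0.76 and 0.67. At least 16-fold apart stood 354 called genes on the brain side and 72 on the side of the line. Arrays of the line correlated with each other at 0.984 to 0.987 over genes and PBS brains at 0.973 to 0.99, and arrays of different sources at 0.39 to 0.405.

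The balance of both directions rests on the scale. The array medians lay between 6.35 and 6.49, and where the arrays were instead centred on 15 broadly expressed reference genes, the median difference moved from 0.11 to -0.22. The share of called genes that were higher in BAL17 cells was 54.1% as deposited and 37.4% on that scale, and for the calls over 2-fold it was 40.9% and 26.3%. The reference genes did not share 1 level in the sources. Rplp0, a ribosomal stalk protein, was higher in BAL17 cells by 2.76 ± 0.08, and Gusb, a lysosomal glucuronidase, by 2.18 ± 0.09. Polr2a, the large subunit of RNA polymerase II, differed by 1.11 ± 0.07, Hprt by -0.69 ± 0.07 and Actb by -0.61 ± 0.06, and none of these 3 passed the call over 2-fold. With centring on the median of the named probe sets Polr2a was at 1.25 and passed it. Ppia differed by 0.04 ± 0.06 and turned to -0.33 with quantile normalization and to -0.29 on the reference scale. Vim, an intermediate filament of both lymphocytes and glia, stood at 9.8 in BAL17 cells and 9.31 in PBS brains, a difference of 0.48 ± 0.08 that shrank to 0.16 on the reference scale and was no longer called.

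**Figure D1:**
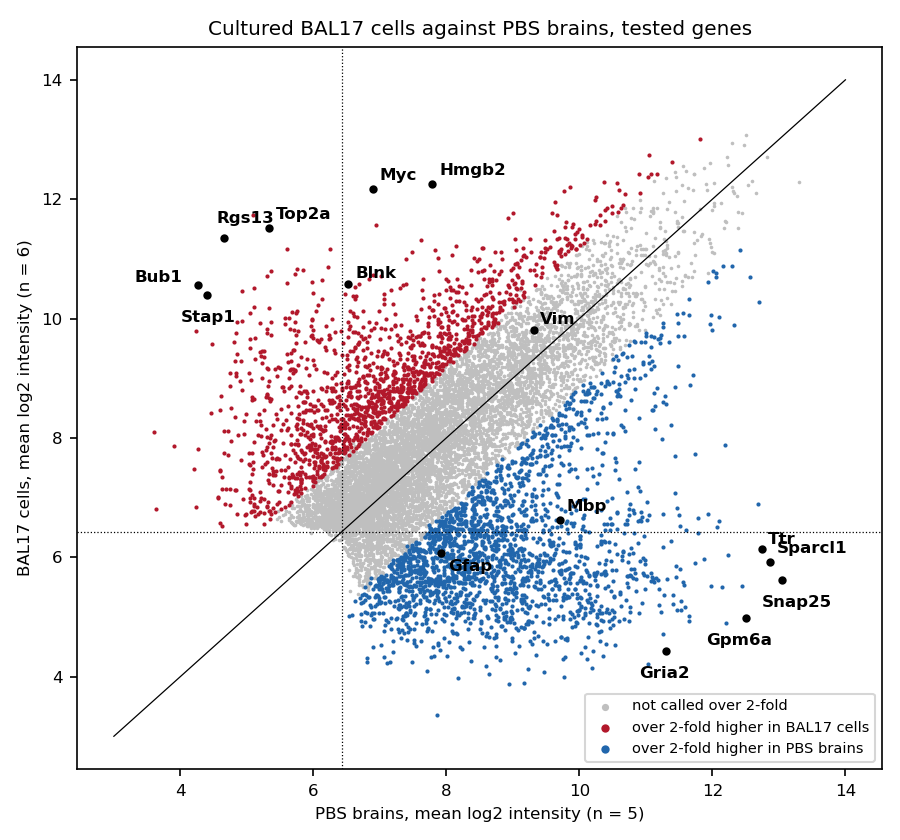
Mean log2 intensity of each tested gene in BAL17 cells (vertical axis, n = 6 arrays) against PBS brains (horizontal axis, n = 5), with equal levels on the solid line and the mean of the array medians, 6.43, on the dotted lines. The 1499 genes more than 2-fold higher in BAL17 cells are red, the 2165 more than 2-fold higher in PBS brains are blue, and Snap25, Gpm6a and Sparcl1 lie at the far lower right.

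Genes of cell division were far higher in the line. Top2a, the topoisomerase that untangles chromosomes before they separate, ran from 11.46 to 11.68 in BAL17 cells with a median of 11.47. The 5 PBS brains had 4.85, 5.74, 5.31, 5.3 and 5.47, so the groups stood far apart, with a difference of 6.19 ± 0.12. Mki67, the Ki-67 antigen of dividing cells, ran from 11.01 to 11.34 with a median of 11.16 in the line. It stood at 5.64, 5.83, 5.64, 5.52 and 5.43 in the brains, all below the median of an array, and the difference was 5.55 ± 0.08. Bub1, a kinase of the spindle checkpoint, differed by 6.3 ± 0.11, its partner Bub1b by 5.42 ± 0.09 and Knl1, the kinetochore scaffold that binds both, by 5.53 ± 0.18. The adjusted p of these 5 genes in limma's treat test lay between 1.87e-15 for Mki67 and 5.16e-12 for Knl1. Because their brain means of 4.26 to 5.61 lie where background dominates, the folds are lower limits rather than ratios of transcripts, and their order has no meaning.

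Of 28 listed mitosis genes, 26 had a probe set and all 26 passed the filter. All 26 were more than 2-fold higher in BAL17 cells (beside 12.1% of all tested genes), with a median difference of 4.18 against 0.11 over all genes. The list passed the filter through BAL17 arrays for the most part, since 4 of the 26 had a PBS mean above the array medians. The levels of this list averaged 9.81 to 9.97 on the BAL17 arrays and 5.65 to 5.79 on the PBS arrays. DNA replication genes followed at a smaller distance. All 29 with a probe set were tested, and 27 were more than 2-fold higher (beside 12.1% of all tested genes). The median was 2.68, and here 17 had a PBS mean above the array medians. Mcm6, part of the replicative helicase, ran from 10.61 to 10.91 with a median of 10.84 in the line, and stood at 5.94, 5.84, 5.92, 5.86 and 5.61 in the brains (4.97 ± 0.08). Rrm2, the S-phase subunit of ribonucleotide reductase, differed by 4.36 ± 0.1, Mcm3 by 4.02 ± 0.12 and Uhrf1, which carries DNA methylation over to the new strand, by 3.76 ± 0.14.

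The kinases and cyclins that start the cycle were split. Cdk6, which pairs with D-type cyclins in blood cells, stood at 11.16 ± 0.03 (SD, n = 6) in the line and 6.25 ± 0.48 (SD, n = 5) in the brains. Its relative Cdk4 differed by 1.81 ± 0.07. Ccnd2, the D-type cyclin of B cells, was higher in the line by 2.23 ± 0.09, while Ccnd3 at 0.86 ± 0.1 and Ccnd1 at -0.88 ± 0.13 did not pass the call over 2-fold. These 5 genes were chosen after their values were seen.

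Growth genes stood beside the division genes. Myc, the transcription factor that drives cell growth, ran from 12.06 to 12.25 with a median of 12.17 in BAL17 cells, and the PBS brains had 6.85, 7.3, 6.62, 6.71 and 7. All values lay above the array medians in both sources, although the PBS mean of 6.9 is near them, and the difference was 5.27 ± 0.1. Of 27 genes of ribosome biogenesis and other MYC targets, 22 were more than 2-fold higher (beside 12.1% of all tested genes). The list's median was 1.93, and 24 had a PBS mean above the array medians. Ddx21, a nucleolar helicase, differed by 3.05 ± 0.07, Cad, the first enzyme of pyrimidine synthesis, by 2.85 ± 0.08 and Wdr43, a factor of the small ribosomal subunit, by 2.75 ± 0.07. All 36 measured cytosolic ribosomal protein genes were higher at an adjusted p under 0.05 in limma (beside 45.8% of all tested genes). By more than 2-fold, 24 of them were higher (beside 12.1%), with a list median of 1.43. Rps20 stood at 12.14 against 9.77 and Rpl8 at 11.33 against 9.03. Ribosomal protein genes have many processed copies, and probes shared with them leave single values uncertain.

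Other basic processes differed by less. Of 24 spliceosome genes, 22 were higher at an adjusted p under 0.05 in limma and none lower, beside 45.8% of all tested genes higher. More than 2-fold higher were 5 of them (beside 12.1% of all tested genes; list median 0.84), led by Sf3b3 at 1.54 ± 0.06 and Prpf8 at 1.43 ± 0.07, and on the reference scale 1 passed that call and 21 were higher at an adjusted p under 0.05, with Prpf8 at 1.1. None of the 26 proteasome core genes passed the call over 2-fold in either direction. At an adjusted p under 0.05 in limma, 12 were higher and 8 lower, beside 45.8% and 38.8% of all tested genes. Their median of 0.04 turned to -0.28 on the reference scale. Of 39 nuclear genes of the respiratory complexes, 4 were more than 2-fold lower in BAL17 cells, a smaller share than the 17.5% of all tested genes. They were Uqcrb (-2.1 ± 0.09), Ndufa1 (-1.77 ± 0.1), Cox4i1 (-1.37 ± 0.08) and Ndufb5 (-1.33 ± 0.08). With centring on the median of the named probe sets Ndufb5 was at -1.19 and was not called, and on the reference scale 10 genes of the list were. The median of that list was -0.42, with 31 genes lower and 3 higher at an adjusted p under 0.05 in limma, beside 38.8% and 45.8% of all tested genes. Of 17 sterol synthesis genes, Cyp51 (1.89 ± 0.08) and Sqle (1.78 ± 0.11) passed the call over 2-fold, near the 12.1% of all tested genes. The PBS values of both ranged widely, from 8.39 to 9.1 for Sqle.

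**Figure D2:**
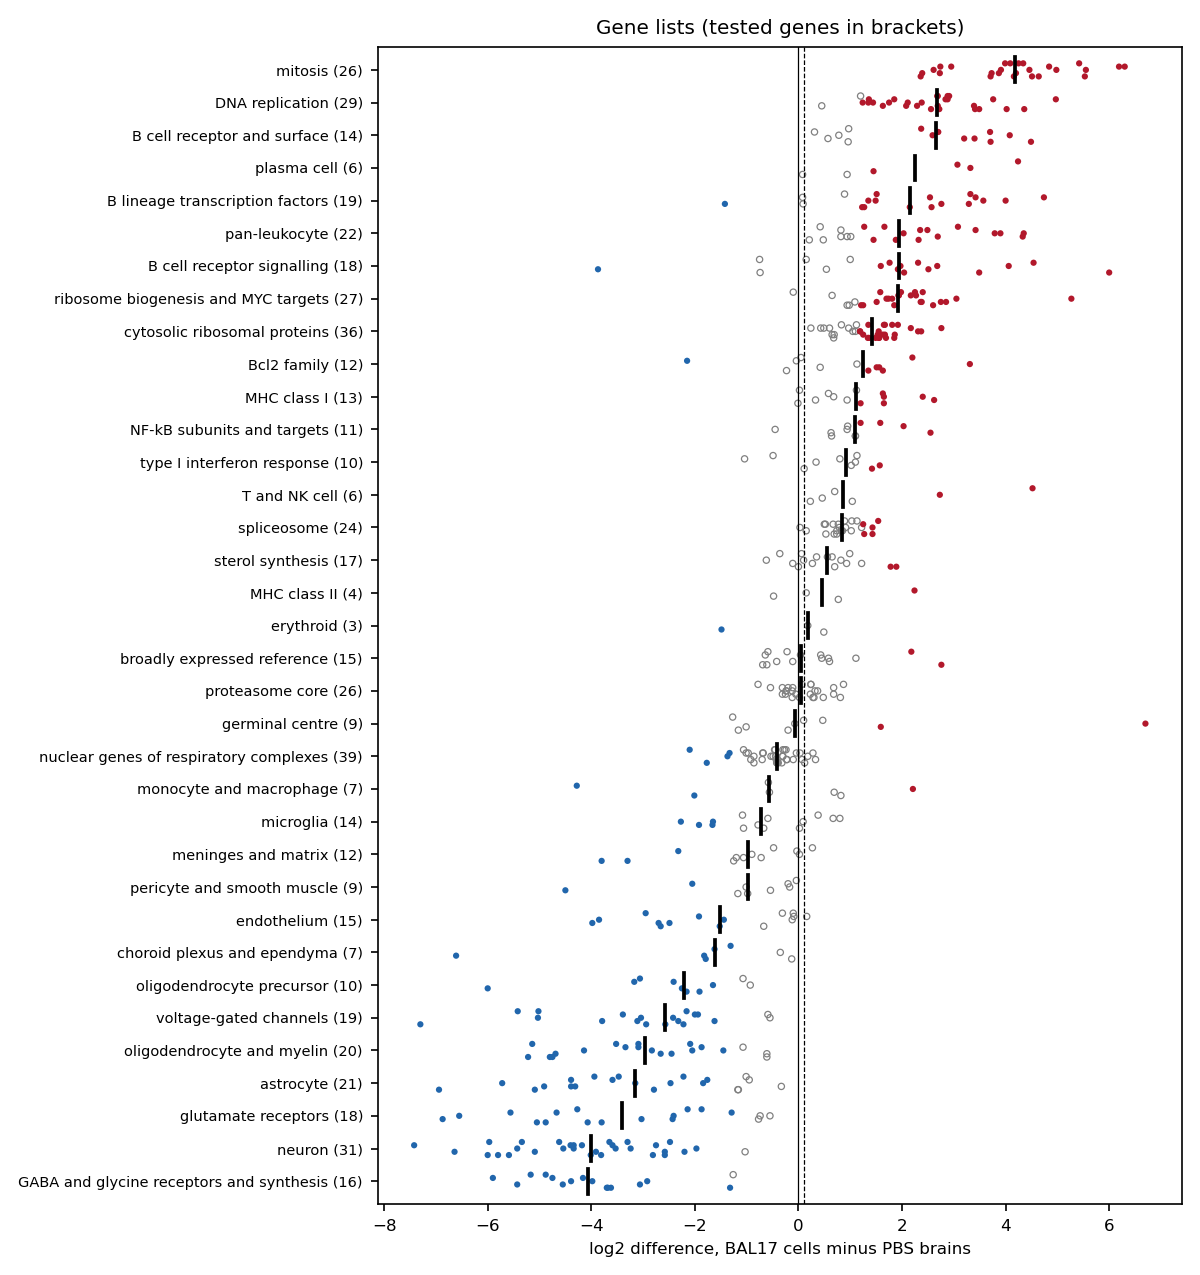
Difference of each tested list gene (BAL17 cells minus PBS brains, log2, horizontal axis), with 1 line of points per list, the number tested in brackets and the list's median as a black bar. Filled points passed the call over 2-fold and open points did not, and the dashed line marks the median over all genes, 0.11. The mitosis list lies at the top with a median of 4.18, and the neuronal and receptor lists at the bottom below -3.

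Most tested genes of the B cell receptor, its signalling chain and the B lineage transcription factors were higher in the line. Cd79b, 1 of the signalling chains of the B cell receptor, ran from 10.08 to 10.18 with a median of 10.1 in BAL17 cells, and the brains had 6.21, 5.59, 6, 6.38 and 6.03 (4.08 ± 0.11). Its partner Cd79a stood between 8.68 and 8.89 in the line, but the brains spread from 4.43 to 6.57, so its difference of 3.2 ± 0.25 is less sharply fixed. Blnk, the adaptor that links the receptor to calcium signalling, ran from 10.46 to 10.67 with a median of 10.6, against 6.39, 6.64, 6.62, 6.46 and 6.51 (4.06 ± 0.07). Btk, the kinase downstream of the receptor, differed by 4.54 ± 0.11, and Stap1, an adaptor of B cells, by 6 ± 0.11. Of 22 receptor and surface genes with a probe set, 15 had a BAL17 mean above the array medians and 4 a PBS mean above them. The 14 that passed the filter thus did so mostly through BAL17 arrays, and 9 were more than 2-fold higher (beside 12.1% of all tested genes). P2ry10, a lysophospholipid receptor, Cd72, a coreceptor, and Cd37, a tetraspanin, stood at 4.49 ± 0.1, 3.71 ± 0.07 and 3.7 ± 0.09. Of 20 signalling genes with a probe set, 18 had a BAL17 mean above the array medians and 9 a PBS mean above them. That list thus passed the filter partly through BAL17 arrays, which favours higher values in the line. Of 18 tested signalling genes, 12 were more than 2-fold higher and 1 lower (beside 12.1% and 17.5% of all tested genes).

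The exception was Prkcb, the protein kinase C that relays the receptor signal to NF-kB. It ran from 6.72 to 7.15 with a median of 6.87 in BAL17 cells and stood at 10.79, 10.68, 10.77, 10.72 and 10.85 in PBS brains, a difference of -3.87 ± 0.08. The octamer in its promoter window is the same string as in Blnk, which lay on the opposite side. Grb2 (-0.74 ± 0.14) and Cd81 (-0.75 ± 0.07) were lower at an adjusted p under 0.05 in limma, not by the call over 2-fold. Prkcb is also known as a kinase of neurons.

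Among 19 B lineage transcription factors tested, 15 were more than 2-fold higher and 1 was lower (beside 12.1% and 17.5% of all tested genes). Of 20 with a probe set, 19 had a BAL17 mean above the array medians and 9 a PBS mean above them. The list thus passed the filter partly through BAL17 arrays, which favours higher values in the line. Pax5 ran from 10.02 to 10.26 with a median of 10.13 and stood at 6.28, 6.28, 6.51, 6.7 and 7 in the brains (3.57 ± 0.12). Ikzf3 (4.74 ± 0.1) and Ikzf1 (4 ± 0.09), lymphoid zinc finger factors, and the octamer coactivator Pou2af1 (3.42 ± 0.14) were higher as well. Bcl11a, which is needed both for early B cells and in cortical neurons, was lower in the line by -1.42 ± 0.07. Bcl6, the repressor that defines germinal centre B cells, had 7.04 to 7.4 with a median of 7.22 in BAL17 cells and 8.33, 8.41, 8.35, 8.12 and 7.96 in PBS brains. Its difference of -1.01 ± 0.09 did not pass the call over 2-fold, although it did at -1.33 on the reference scale, and the groups did not overlap. Of 9 germinal centre genes tested, 2 were more than 2-fold higher (beside 12.1% of all tested genes). They were Rgs13, a brake on G protein signalling, and Mybl1, a MYB factor of dividing germinal centre cells. Rgs13 ran from 11.3 to 11.47 with a median of 11.32 and stood at 4.57, 5.32, 4.54, 4.65 and 4.16 in the brains, so the difference was 6.7 ± 0.15, and Mybl1 differed by 1.59 ± 0.1. Lmo2 and Basp1 of the same list stood at -1.27 ± 0.19 and -1.16 ± 0.13 without passing the call over 2-fold, and passed it on the reference scale at -1.6 and -1.48.

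Plasma cell genes were higher in part. Of 10 with a probe set, 6 had a BAL17 mean above the array medians and 2 a PBS mean above them. The 6 that passed the filter thus did so mostly through BAL17 arrays, which favours higher values in the line. More than 2-fold higher were 4 of the 6 (beside 12.1% of all tested genes), of which Irf4 is also among the B lineage transcription factors. Slamf7 (4.24 ± 0.09), Irf4 (3.32 ± 0.1), Mzb1, a chaperone of antibody assembly (3.07 ± 0.08), and Derl3 (1.45 ± 0.12) were more than 2-fold higher, with Derl3 at 1.12 and not called on the reference scale. Xbp1, the secretory regulator, stood at 7.55 and 7.47 (0.08 ± 0.08, and -0.25 on the reference scale), and Prdm1, the master factor of plasma cells, stood at 5.76 and 5.15, below the array medians in both sources. Bcl2, the survival factor, ran from 11.08 to 11.2 with a median of 11.15 in the line, against 7.91, 7.95, 7.84, 7.54 and 7.93 in the brains (3.31 ± 0.08). Its relative Bcl2l1, which protects neurons, had the opposite difference of -2.15 ± 0.08, with 6.22 to 6.59 against 8.44 to 8.8. The BH3-only genes Bcl2l11 (2.2 ± 0.09) and Bid (1.63 ± 0.12), which promote death, were higher in the line. NF-kB genes with more than 2-fold differences were Birc3 (2.55 ± 0.1), Rel (2.03 ± 0.08), Nfkb2 (1.58 ± 0.08) and Rela (1.2 ± 0.07), 4 of 11 tested (beside 12.1% of all tested genes). Of these, Rela at 0.88 was not called on the reference scale.

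Of 22 pan-leukocyte genes tested, 15 were more than 2-fold higher in the line and none was lower (beside 12.1% and 17.5% of all tested genes). Of 27 with a probe set, 23 had a BAL17 mean above the array medians and 10 a PBS mean above them. The list thus passed the filter largely through BAL17 arrays, which favours higher values in the line. Dock2, an activator of Rac in leukocytes, differed by 4.35 ± 0.08, Cytip by 4.33 ± 0.11, and Ptprc, the CD45 phosphatase, by 3.9 ± 0.12. Ptprc lay above the array medians on 4 of the 5 PBS arrays. Ifi30, a lysosomal thiol reductase used in antigen processing, stood at 10.73 against 6.9. Other large differences of the line were in genes outside these lists. Kynu, kynureninase of tryptophan breakdown, stood at 10.77 to 10.82 against 4.92 to 5.83. Pdcd1lg2, the PD-1 ligand PD-L2, stood at 10.46 to 10.61 against 4.83 to 5.6, and Ddx43, an RNA helicase, differed by 5.56 ± 0.07. Map3k15 (4.64 ± 0.07), the chromatin protein Hmgb2 (4.46 ± 0.1), the separase inhibitor Pttg1 (3.94 ± 0.11) and the small nucleolar RNA gene Snora75 (3.89 ± 0.14) lay above the array medians in both sources.

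The probe sets of Kcnma1, the large-conductance potassium channel, went in opposite directions. One stood at 11.74 ± 0.02 (SD, n = 6) in BAL17 cells and 5.09 ± 0.48 (SD, n = 5) in PBS brains. The other stood at 5.18 ± 0.45 in BAL17 cells and 9.33 ± 0.09 in PBS brains. The annotation lists 17 RefSeq transcripts for the second probe set and 0 for the first, which rests on 4 other sequence records, and the sets share 0 records. No direction is therefore given for Kcnma1. Among 869 tested genes with several probe sets, 3 had probe sets that opposed each other in this way, by more than 1 on the log2 scale on each side.

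Several genes known from other tissues were high in BAL17 cells. Il7r, the interleukin 7 receptor of early lymphocytes and T cells, ran from 10.56 to 10.77 with a median of 10.63 in the line and stood at 6.06, 6.35, 6.17, 6.27 and 5.8 in the brains (4.52 ± 0.09). Cd3g, a chain of the T cell receptor complex, had 7.23 to 7.59 with a median of 7.29 against 4.47, 4.24, 4.67, 5.02 and 4.71 (2.73 ± 0.12). The other 4 tested genes of that list were higher by less. Of 22 T and NK cell genes, 6 had a BAL17 mean above the array medians and 1 a PBS mean above them. The 6 that passed the filter thus did so mostly through BAL17 arrays, which favours higher values in the line. All 6 were higher at an adjusted p under 0.05 in limma (beside 45.8% of all tested genes). By more than 2-fold, 2 were higher (beside 12.1%). The list averaged 5.84 to 5.96 on BAL17 arrays and 5.18 to 5.38 on PBS arrays. Cd3e, the invariant partner of Cd3g, stood at 6.63 and 6.18, and Cd6, Cd247 and Prf1 differed by 0.7 ± 0.1, 1.04 ± 0.09 and 0.23 ± 0.08 without passing the call over 2-fold. On the reference scale 4 of the 6 were higher and Prf1 turned to -0.1. Slc6a3, the dopamine transporter of midbrain neurons, stood at 9.01 to 9.21 in BAL17 cells and at 6.49, 7.56, 6.25, 6.02 and 6.4 in PBS brains. The lymphoma line was thus above every brain array for a neuronal transporter (2.58 ± 0.2), and 1 brain lay apart from the other 4. Cybb, the NADPH oxidase subunit of phagocytes and B cells, was higher in the line by 2.21 ± 0.11, but Lyz2 (-2.01 ± 0.2) and Ifitm3 (-4.28 ± 0.21) of the macrophage list were lower, and 4 of its 22 genes had a BAL17 mean above the array medians. None of 10 granulocyte genes passed the filter. Of 9 pituitary genes 1 passed it, Ghrhr at 7.48 and 7.38, and of 3 erythroid genes Bpgm alone was called, at -1.49 ± 0.08.

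Interferon genes were mostly short of the call over 2-fold. Of 20 genes of the type I response, 10 passed the filter. The RNA sensor Ddx58 (1.57 ± 0.08) and the antiviral tether Bst2 (1.42 ± 0.08) were called higher, beside 12.1% of all tested genes. On the reference scale Bst2 was at 1.1 and not called, and Ifit2 at -1.37 was called lower. Antigen presentation genes of both classes were measured. Of 13 MHC class I pathway genes tested, 6 were more than 2-fold higher in BAL17 cells (beside 12.1% of all tested genes). Among them were the immunoproteasome subunits Psmb8 (2.62 ± 0.08) and Psmb9 (1.65 ± 0.11), the trimming peptidase Erap1 (2.4 ± 0.07) and the peptide transporter Tap1 (1.65 ± 0.07). Of 9 MHC class II genes with a probe set, 4 passed the filter, and H2-Ob, a modulator of peptide loading, was more than 2-fold higher (2.23 ± 0.09). H2-Ab1, the partner chain of H2-Aa, stood at 7.24 in the line and 6.47 in PBS brains without overlap (0.77 ± 0.08), and Cd74 at 6.26 and 5.48, also without overlap, with both means below the array medians. The difference between the classes was not tested. H2-Aa, a chain of the class II molecule itself, ran from 5.07 to 6.12 in the line and stood at 5.31, 6.26, 6.17, 5.97 and 5.67 in the brains, so the groups overlapped below the array medians. Ms4a1, the CD20 antigen of mature B cells, ran from 4.81 to 5.65 in the line and from 4.83 to 5.19 in the brains, which also overlapped.

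**Figure D3:**
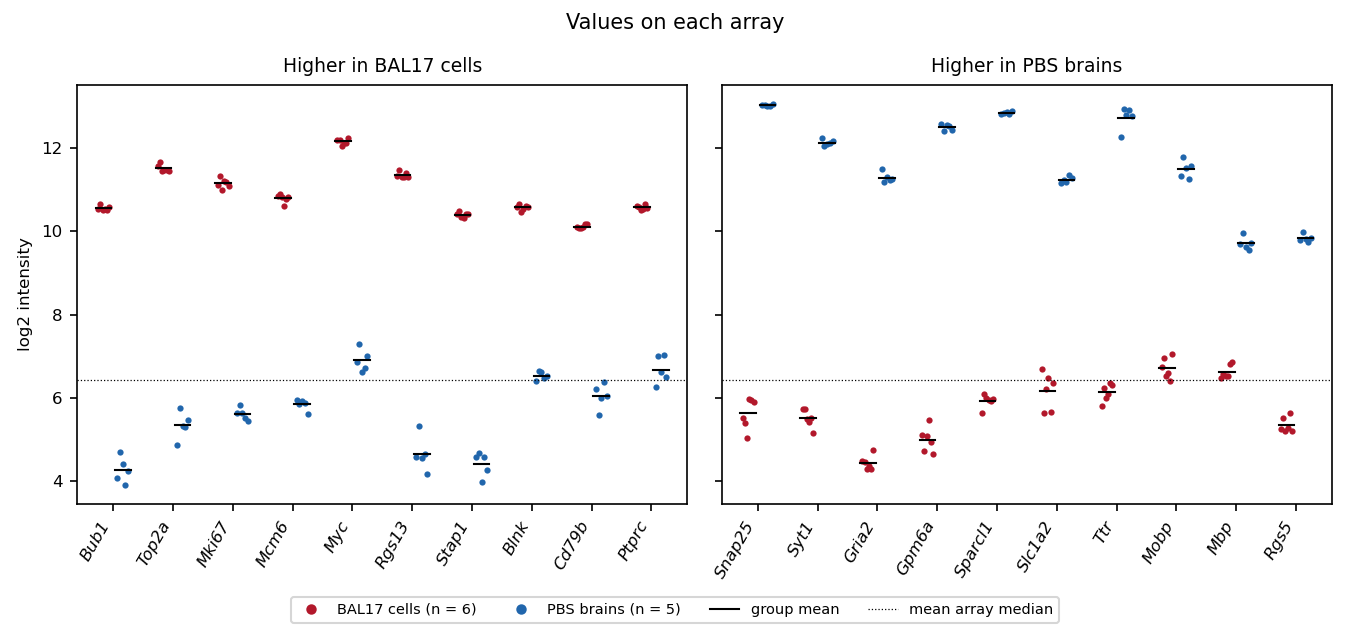
Log2 intensity (vertical axis) of 20 genes on each BAL17 array (red, n = 6) and each PBS array (blue, n = 5), with group means as bars and the mean of the array medians as a dotted line. The groups do not overlap for any of these genes, as for most tested genes, and some were named by a rule that asks for no overlap. Myc, Blnk and Ptprc are among those whose PBS mean lies above the dotted line.

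On the brain side neuronal genes were far higher than in the line. Snap25, a membrane fusion protein of synapses, ran from 5.02 to 5.96 with a median of 5.71 in BAL17 cells and stood at 13.05, 13.05, 13.01, 13.02 and 13.08 in the brains. The SD over the brains was 0.03, and the difference was -7.42 ± 0.14. Gpm6a, a neuronal membrane glycoprotein, differed by -7.53 ± 0.12, Scn2a, a sodium channel, by -7.3 ± 0.25, and Syt1, the calcium sensor of release, by -6.64 ± 0.1. Other genes of the brain side were Cpe, a prohormone-processing enzyme (-6.93 ± 0.11), Ano3 (-6.82 ± 0.18), Cnksr2 (-6.72 ± 0.11) and Nckap1, a regulator of actin (-6.63 ± 0.13). Of 31 neuron genes tested, 30 were more than 2-fold lower in the line (beside 17.5% of all tested genes) and none higher. The list's median was -4.01, and Nefm and Stmn2 stood at -6 ± 0.17 and -5.97 ± 0.13. All 31 had a PBS mean above the array medians, and 11 had a BAL17 mean above them. The list thus passed the filter mostly through PBS arrays, which favours lower values in the line.

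Receptor genes behaved alike. Gria2, the AMPA receptor subunit that limits calcium entry, ran from 4.27 to 4.74 with a median of 4.4 in the line, and stood at 11.5, 11.18, 11.31, 11.24 and 11.26 in the brains (-6.87 ± 0.09). Gria3 (-6.55 ± 0.13), Gria4 (-5.56 ± 0.16) and Gria1 (-5.05 ± 0.08) were lower too. Of 18 glutamate receptor genes, 15 passed the call over 2-fold (median -3.41, beside 17.5% of all tested genes). Of 16 genes of GABA and glycine receptors and synthesis, 15 passed it with a median of -4.07 (beside 17.5% of all tested genes). Gabrb2 stood at 5.37 against 11.27, Glrb, which anchors glycine receptors, at 5.35 against 10.52, and Gabra6, the subunit of cerebellar granule cells, at 5.09 against 10.52. The brains had 10.55, 9.8, 10.9, 10.79 and 10.56 for Gabra6, and replicate 2 was the lowest. Of 19 voltage-gated channel genes, 17 passed the call (median -2.57, beside 17.5% of all tested genes). Cacna2d1 stood at -5.42 ± 0.12, Kcnd2 at -5.03 ± 0.18 and Scn1a at -5.02 ± 0.14. A BAL17 mean above the array medians was found for 4 glutamate receptor, 1 GABA and glycine and 6 channel genes. A PBS mean above them was found for 18, 16 and 19. These lists thus passed the filter mostly through PBS arrays, which favours lower values in the line.

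Glial genes followed. Sparcl1, a matrix protein that astrocytes secrete, ran from 5.62 to 6.09 with a median of 5.95 in BAL17 cells and stood at 12.83, 12.86, 12.87, 12.83 and 12.89 in the brains (-6.94 ± 0.08). Slc1a2 (-5.09 ± 0.17) and Slc1a3 (-4.91 ± 0.11), the glutamate transporters of astrocytes, and the bicarbonate transporter Slc4a4 (-5.72 ± 0.1) were lower. By more than 2-fold, 16 of 21 astrocyte genes were lower (beside 17.5% of all tested genes). Gfap, the astrocyte filament, showed a smaller gap, with 5.75 to 6.46 in the line and 7.44, 8.23, 8, 7.83 and 8.09 in the brains (-1.84 ± 0.15). Of 20 myelin genes, 17 were more than 2-fold lower (beside 17.5% of all tested genes). Among them were Ermn (-5.22 ± 0.19), Ugt8a, which makes the myelin lipid galactosylceramide (-5.14 ± 0.11), and Aspa (-4.75 ± 0.17). Mobp had 6.4 to 7.04 against 11.33, 11.8, 11.54, 11.26 and 11.58. Mbp, a main myelin protein, stood at 6.62 in the line and 9.71 in the brains (-3.09 ± 0.09). Of 10 precursor genes, 8 were more than 2-fold lower (beside 17.5% of all tested genes), with Ptprz1 at -6 ± 0.1, Lhfpl3 at -3.17 ± 0.16 and Vcan at -3.06 ± 0.18. A BAL17 mean above the array medians was found for 8 astrocyte, 10 myelin and 3 precursor genes. A PBS mean above them was found for 21, 20 and 10. These lists thus passed the filter largely through PBS arrays, which favours lower values in the line.

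Genes of vessels, meninges and choroid plexus gave fewer calls. Of 15 endothelial genes, 9 were more than 2-fold lower (beside 17.5% of all tested genes). They were led by the transporters Slco1a4 (-3.98 ± 0.13) and Slco1c1 (-3.85 ± 0.18) of the blood-brain barrier. Itm2a and Mfsd2a of the same list, chosen after their values were seen, stood at 9.09 and 8.09 in the line against 9.22 and 7.93 in PBS brains, without a call at 2-fold. Rgs5 of pericytes stood at -4.5 ± 0.09 and Vtn at -2.05 ± 0.11, 2 of 9 genes of that list (beside 17.5% of all tested genes), and on the reference scale there were 5. Ptgds (-3.8 ± 0.1), Dcn (-3.3 ± 0.14) and Mgp (-2.32 ± 0.09) were the 3 of 12 meningeal and matrix genes past the call (beside 17.5% of all tested genes). On the reference scale there were 6. Ttr, the thyroid hormone carrier made by the choroid plexus, ran from 5.79 to 6.36 in the line and stood at 12.27, 12.94, 12.8, 12.92 and 12.78 in the brains (-6.61 ± 0.13). Its companions were dimmer and varied more between brains, with Otx2 at -1.62 ± 0.17, Sostdc1 at -1.79 ± 0.21 and Clic6 at -1.82 ± 0.18. Of 7 tested genes of that list, 5 passed the call (beside 17.5% of all tested genes). A BAL17 mean above the array medians was found for 5 endothelial and 2 choroid plexus genes, and a PBS mean above them for 15 and 8. Both lists thus passed the filter mostly through PBS arrays, which favours lower values in the line.

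Microglia are the resident macrophages of the brain. Of 14 tested genes of their list, 4 were more than 2-fold lower in the line (beside 17.5% of all tested genes). They were P2ry13 (-2.27 ± 0.13), C1qc (-1.92 ± 0.16), P2ry12 (-1.66 ± 0.15) and Csf1r (-1.65 ± 0.1). Cx3cr1, the fractalkine receptor, stood at 6.82 in the line and 7.9 in the brains (-1.08 ± 0.11), and passed the call only on the reference scale (-1.41). The lysosomal protease gene Ctss (0.8 ± 0.11), the adaptor Tyrobp (0.67 ± 0.12) and Selplg (0.38 ± 0.09) had higher values in BAL17 cells at an adjusted p under 0.05 in limma, not by more than 2-fold. On the reference scale Selplg was at 0.06 and no longer called. Ctss stood at 10.59 in the line and 9.79 in PBS brains, and Tyrobp at 8.64 and 7.96. Both markers of microglia in brain were thus carried by the line itself.

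Genes lower in the line whose mean lay above the array medians in both sources included Vsnl1, a neuronal calcium sensor (-5.8 ± 0.15), Sparc (-5.57 ± 0.11), the sodium pump subunit Atp1b2 (-5.49 ± 0.11), Bex3 (-5.21 ± 0.18), the brain creatine kinase Ckb (-5.14 ± 0.15), 1700025G04Rik (-5.13 ± 0.12) and Apod, a lipid carrier (-4.99 ± 0.16). For these both group means lay above 6.43, the mean of the array medians, although the means of the line, 6.45 to 6.9, were close to it and single BAL17 arrays of Bex3 (5.88) and Ckb (5.82) fell below, so these differences too are lower limits.

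Paralogous genes divided between the sources in 5 of the 36 families with 2 or more tested members, meaning that 1 member or more was higher and another lower by more than 2-fold. On the reference scale 4 families divided, the beta tubulin, Dock and Vav families and the catalytic subunits of PI3K, and neither BAF subunit did. The BAF chromatin remodelling complex swaps subunits when neurons leave the cell cycle. Actl6a, the BAF53 subunit of dividing cells, stood at 8.57 in BAL17 cells and 7.38 in PBS brains (1.19 ± 0.06), and Actl6b, its neuronal counterpart, at 6.53 and 8.29 (-1.77 ± 0.1). Of the BAF60 subunits, Smarcd2 differed by 1.42 ± 0.07, Smarcd3 by -1.35 ± 0.1 and Smarcd1 by -0.43 ± 0.07. On the reference scale Actl6a was at 0.87 and Smarcd2 at 1.09, and with centring on the median of the named probe sets Smarcd3 was at -1.21, which no longer passed the call over 2-fold.

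Activators of Rac, a switch of the actin skeleton, divided as well. Dock2 ran from 10.03 to 10.15 with a median of 10.09 in the line and stood at 5.81, 5.65, 5.89, 5.49 and 5.84 in the brains. Dock3, its neuronal relative, ran from 5.27 to 5.65 with a median of 5.47 and stood at 9.99, 9.84, 9.82, 10.03 and 9.99. The groups stood apart for both genes and in opposite directions (4.35 ± 0.08 and -4.46 ± 0.08), each with 1 source below the array medians. Dock1 (-2.26 ± 0.11) and Dock4 (-1.91 ± 0.07) were on the brain side. Vav1, the blood cell member of another family of Rac activators, differed by 2.68 ± 0.08 and Vav3 by -2.28 ± 0.12, while Vav2 at 0.88 ± 0.1 did not pass the call over 2-fold. Among beta tubulins, the building blocks of microtubules, Tubb5 (1.64 ± 0.09) and Tubb6 (1.37 ± 0.1) were higher in the line. Tubb3, the neuronal form (-4.4 ± 0.19), Tubb4a (-4 ± 0.16) and Tubb2a (-3.36 ± 0.09) were lower, and Tubb2b stood at -1.03 ± 0.09 without passing the call, which it passed at -1.35 on the reference scale. Tubulin sequences are alike, so shared probes could blur single members, and Tubb6 at 1.04 did not pass the call on the reference scale.

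**Figure D4:**
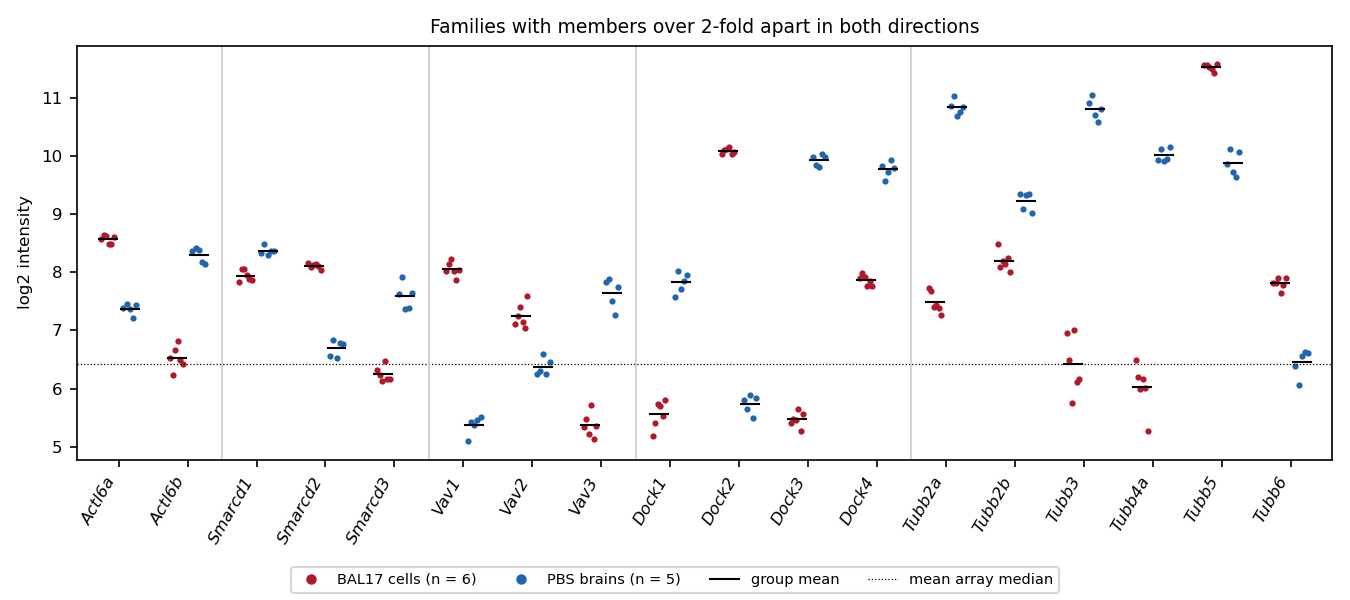
Log2 intensity (vertical axis) of the members of 5 gene families on each BAL17 array (red, n = 6) and PBS array (blue, n = 5), with bars at group means and families parted by grey lines. In each family at least 1 member lies more than 2-fold higher and another more than 2-fold lower in BAL17 cells, as Dock2 (10.09 against 5.74) and Dock3 (5.47 against 9.93) show.

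Further enzymes and regulators of this kind were chosen after their values were seen, and most have 1 member that did not pass the call over 2-fold. Ldhb, the lactate dehydrogenase subunit of oxidative tissue, stood at 5.59 in BAL17 cells and 11.12 in PBS brains (-5.53 ± 0.13), while Ldha, the subunit of glycolytic cells, stood at 11.62 and 10.63 (0.99 ± 0.07), which did not pass the call over 2-fold. Eno2, the neuronal enolase, differed by -4.18 ± 0.11. Pdk2, a kinase that closes pyruvate dehydrogenase, was lower by -2.67 ± 0.1, and Pdk1 at 1.17 ± 0.07 missed the call (adjusted p = 0.0592 in limma's treat test), but passed it at 1.31 with median centring. Mapk10, the neuronal JNK, stood at -6.19 ± 0.18, with Mapk9 at -1.2 ± 0.08 (-1.06 and not called with median centring) and Mapk8 at -0.58 ± 0.08. Of the ELAV RNA-binding proteins, Elavl2 differed by -4.2 ± 0.19 and the general member Elavl1 by 0.84 ± 0.07. Ptbp1, a splicing repressor outside neurons, was higher by 2.03 ± 0.1, and Ptbp2, its neuronal relative, stood at 9.84 and 10.22 (-0.38 ± 0.08).

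Brains implanted with BAL17 were then placed between the sources, as a description without a test. Each value is the share of the linear distance from the PBS mean to the BAL17 mean, as the median over genes called by more than 2-fold and at least 8-fold apart. On 204 genes high in the line, the 5 brains of day 21 lay at 13.2%, 15.4%, 13.9%, 13.1% and 21%, and those of day 28 at 14.3%, 12.2%, 13%, 13.3% and 12.5%. The brain of replicate 5 at day 21 stood highest, and the means were 15.3% ± 3.31 (SD, n = 5) and 13.1% ± 0.814 (SD, n = 5). On 702 genes high in PBS brains, the same brains lay at 31%, 23.8%, 25.6%, 34.1% and 33.3% on day 21 and at 20.1%, 20.5%, 24.4%, 23.6% and 22.8% on day 28. The means were 29.6% ± 4.62 (SD, n = 5) and 22.3% ± 1.9 (SD, n = 5), and each of the 10 brains lay farther along on the genes high in PBS brains than on those high in the line. Array intensities are not proportional to RNA over their whole range, so a share is not a share of cells.

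A few genes lay above both sources by the rule that follows, and genes below both sources were not counted. With a search added after the data were seen, 9 of 19938 genes (0.0451%) on day 21 and 6 (0.0301%) on day 28 lay on all 5 implanted brains above all 11 source arrays and above the median of the array medians, with a mean more than 1 on the log2 scale above the higher source mean. The genes shared by both days were H2-Ea, H2-Aa, Cd74 and Lyz2. H2-Ea, an MHC class II chain, stood at 5.67 in the line and 5.85 in PBS brains, and at 9.6 and 9.9 in implanted brains of day 21 and day 28. H2-Aa stood at 5.73, 5.88, 8.73 and 8.64 in the same order, and Cd74, the class II invariant chain, at 6.26, 5.48, 7.84 and 8.02. Lyz2, a lysozyme of phagocytes, stood at 5.43, 7.44, 9.01 and 9.29. Ms4a1 belonged to the day 28 genes only by this rule, with 5.31, 4.95, 7.26 and 7.97, and the difference between its days was not tested. Cultured BAL17VII cells carried H2-Ea at 11.11, H2-Aa at 10.15 and Cd74 at 10.32, and Ms4a1 at 5.3. Which cells of an implanted brain carried these transcripts was not tested.

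**Figure D5:**
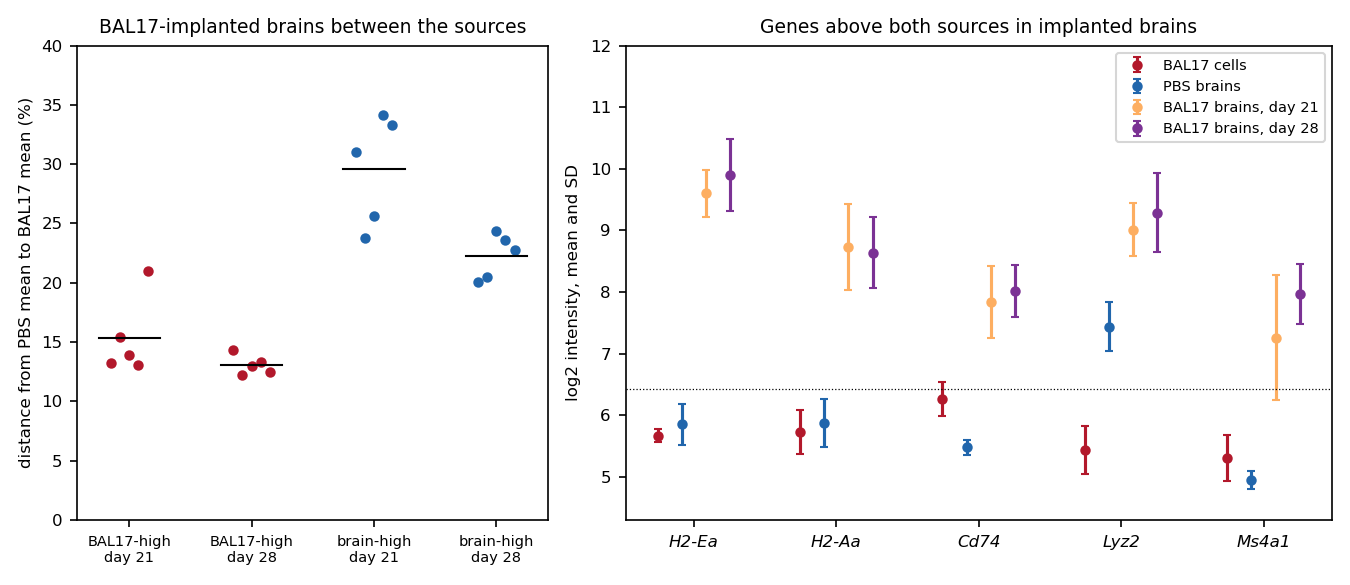
Left, each implanted brain's median share of the distance from PBS brains to BAL17 cells (percent, bar at the group mean) over 204 genes high in the line (red) and 702 high in brains (blue). Right, mean log2 intensity ± SD of 5 genes in BAL17 cells (n = 6), PBS brains and implanted brains of both days (n = 5 each), where H2-Ea stands near 6 in both sources and at 9.6 and 9.9 in implanted brains.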

How the data were processed

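The deposited table holds intensities on a linear scale that the authors computed, and the submitters' processing notes name RMA and Affymetrix Expression Console. Versions, and whether lines and brains were normalized together, are not given in the sources used here. RMA gives no detection call, so differences of genes below the array medians (intensities of 81.7 to 89.7) in 1 source and well above them in the other are lower limits. Arrays have no read depth, and their number limits the precision. Of 35556 probe sets, 21789 carried 1 symbol in the platform annotation, 1621 several and 12146 none, and 21698 of the first matched mouse gene table GRCm38.p6. Each gene was taken from its brightest probe set over the 11 arrays, and log2 was taken first. Differences were tested two-sided with limma 3.58.1 in R 4.3.3 (group means, empirical Bayes, Benjamini-Hochberg over all tested genes), and the call over 2-fold with its treat function. The fit was checked on simulated data.

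Members and lists were chosen with earlier results of these data known. Named genes are the 12 with the largest called difference without overlap in each direction, 8 in each direction with both means above the array medians, of each list the 4 called genes with the largest difference and those called against the list's median, members of divided families, genes of other cell types above the array medians in the line, reference genes and a fixed set. Genes that the text marks were added later. Lists are described by counts and medians. Same-numbered arrays of the sources did not deviate together (correlations of -0.04 to 0.12). The alternatives were quantile normalization, 2 centrings, filters, probe set averaging, other moderation, array weights, the replicate block, all 32 arrays and leaving out each array. Some genes are not analysed here.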

Additional observations from a re-analysis of the deposited data

Results flagged for a closer look

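In 500 groups of values (each named gene in BAL17 cells and in PBS brains), 21 groups (4.2%) had 1 array set apart, meaning that its gap to the nearest other array, as a share of the group's range, exceeded Dixon's critical value for the size of the group. Chance gives about 1 group in 20, so the number of such groups is near that share, and no cause was tested.

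Of the 21 values, 12 were in PBS brains, and replicate 2 held 6 of them. That brain had the lowest Cd2 (5.42, nearest 5.7) and Ghrhr (7.16, nearest 7.38) and the highest Otx2 (7.83, nearest 7.05), a factor of the choroid plexus. It also had the highest Slco1c1 (9.36, nearest 9.07) and the highest values of 2 sterol synthesis genes, Cyp51 (8.77, nearest 8.41) and Idi1 (8.63, nearest 8.11). Replicate 3 had the highest Mcm3 (6.34, nearest 5.69) and the lowest Bcl2l11 (5.59, nearest 5.94) and Snrnp200 (8.54, nearest 8.76). Replicate 4 had the lowest Bcl2 (7.54, nearest 7.84) and Bex3 (11.77, nearest 11.95), and replicate 1 the lowest Ttr (12.27, nearest 12.78).

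The other 9 were in the cultured line. Replicate 6 had the lowest Cd79a (8.68, nearest 8.83) and Xaf1 (5.93, nearest 6.31) and the highest Otx2 (5.96, nearest 5.48). Replicate 4 had the lowest Ano3 (3.4, nearest 4.19) and Snrnp200 (9.92, nearest 10). Replicate 1 had the highest Pdcd1lg2 (10.61, nearest 10.51) and Psmb3 (10.68, nearest 10.54). Replicate 2 had the highest Bpgm (7.17, nearest 7) and replicate 5 the lowest Rela (8.57, nearest 8.68). For Cd79a, Ttr, Bcl2 and Pdcd1lg2 the distance between the sources was many times the distance of the array set apart.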

How the results depend on the processing

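By the plain adjusted p of limma, 4990 values of named genes over all alternatives kept direction and side of the threshold, 33 lost and 12 gained significance, and 8 turned. By the call over 2-fold, checked under the 3 scalings, named genes lost it 12 times and gained it 13 times, 18 of these 25 on the reference scale and 7 with median centring. Centred on the reference genes, the genes called higher were 3740 and those over 2-fold higher 995, the meningeal genes over 2-fold lower 6, the pericyte genes 5, the respiratory genes lower 10 and the spliceosome genes higher 1. On that scale Col6a1 stood at -0.06, Ghrhr at -0.22, Ppia at -0.29, Prf1 at -0.1, Uqcrfs1 at -0.14, Uqcrq at -0.04 and Xbp1 at -0.25, and with quantile normalization Ppia stood at -0.33. Without a filter 9129 genes were called higher. With the filter at the 75th percentile, which tests 6615 genes, 3147 were called higher and 2822 lower, with 5 precursor, 1 microglia and 1 choroid plexus genes over 2-fold lower. Leaving out each array in turn gave 5416 to 5771 genes higher and 4706 to 4844 lower, and 1454 to 1539 and 2103 to 2187 over 2-fold. With the replicate number as a block these were 5576, 4733, 1461 and 2144, and it pairs no samples here. The position of day 28 brains moved to 12.1%, 14% and 15.5% on genes high in the line (at least 4-fold apart, at least 16-fold apart, and above the array medians in both sources), and to 24.6% (at least 4-fold) and 19% (above the medians in both) on genes high in brains. The causes were not tested beyond the smaller or larger number of genes. Signal over background limits all genes near or below the array medians. Where the other source lies well above them, a difference is a lower limit. Where both sources lie near or below them, as for Prf1 and Col6a1, its size and direction are uncertain.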
